A study of Mus musculus with 12 samples.

Results

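Liver gene expression was compared between mice lacking SIRT3 and control mice kept on a high-fat diet, on 6 of the 12 arrays of the series, 3 of each genotype. The arrays were chosen by the genotype, diet and replicate number in their titles, and no measured value entered that choice. Both the control group (genotype SIRT3WT) and the knockout group (SIRT3KO) were 129Sv mice weaned onto a Western diet with 42% fat. All were 12 weeks old and had been fasted for 24 h when the whole liver was taken, so the fast is shared by both groups. Sex, the hour of killing, how the knockout allele was made, which tissues it affects, and whether an array holds RNA of 1 animal are not stated in the labels. P-values therefore measure the spread between these samples, which may be technical. The other 6 arrays hold the same genotypes on a standard diet and enter here through the estimate of the spread and the comparison of diets near the end.

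SIRT3 is an NAD-dependent deacetylase of the mitochondrial matrix. It removes acetyl groups from enzymes of fatty acid oxidation, ketone body synthesis, the urea cycle, the respiratory chain and antioxidant defence, and so acts on proteins rather than on transcripts. In the fasted liver, fatty acids are oxidised in mitochondria while ketone bodies and glucose are made and exported. The arrays measured RNA, so they show transcript levels in this state and not the acetylation of the enzymes.

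No gene passed the test between the knockout and the control on the high-fat diet. Levels are log2 signals of 1 probe set per gene, and a difference is the knockout mean minus the control mean on that scale, with the standard error (SE) of the limma fit. Of 19938 genes, 0 (0.0%) passed the threshold of 0.05 on the limma p adjusted by Benjamini-Hochberg, and the smallest adjusted p was 1.0. At an unadjusted p under 0.05 stood 571 genes (2.86%), of which 182 (0.913%) were higher and 389 (1.95%) lower in the knockout. If no gene differed, a share of about 0.05 would fall there, so the 571 genes are no excess. The knockout mean was lower for 56.9% of all genes and higher for 43.1%, with a median difference of -0.02, and 96.1% of genes differed by less than 0.25. With 3 arrays per group, the median SE of a difference was 0.114, and an exact permutation test of 1 gene could not give a two-sided p under 0.1.

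The excess of lower genes depended on the scaling of the arrays. After median centring the same counts were 268 higher and 292 lower, and after quantile normalization they were 313 higher and 336 lower. The share of higher genes among them was thus 31.9% as deposited, 47.9% after centring and 48.2% after quantile normalization. The groups did not overlap for 6.68% of genes. All 3 knockout arrays lay above all 3 control arrays for 480 genes (2.41%) and below them for 852 (4.27%), and with quantile normalization for 776 and 803 genes. These shares are the background for the counts of members given for each gene group.

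Among the 6 arrays, control replicate 3 and knockout replicate 1 lay apart from their groups. The arrays correlated with one another at 0.990 to 0.995 over all genes, and their medians lay between 6.40 and 6.45. Knockout replicate 1 was the highest or the lowest of the 6 arrays for 41.7% of genes, control replicate 2 for 39.1% and control replicate 3 for 34.4%, while the other 3 arrays were so for 26.3% to 31.8%. The weights that limma gave the arrays from their residuals were 0.537 for control replicate 3 and 0.538 for knockout replicate 1, against 0.754 to 2.56 for the other high-fat arrays. Without control replicate 3 there was 1 called gene (0.00502%), Insig2, and 1156 genes (5.8%) stood at an unadjusted p under 0.05. Leaving out knockout replicate 1 also gave 1 called gene (0.00502%), Wee1, with 792 genes (3.97%) at an unadjusted p under 0.05. Leaving out knockout replicate 3 gave more genes under that unadjusted threshold, 832, but 0 called genes. Knockout replicate 1 was singled out after these values were seen. In these fits the spread of a group with 2 arrays is taken from all groups.

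The arrays carried the markers of liver. Albumin (Alb) lay between 14.08 and 14.16 on all 6 arrays, and the 22 measured hepatocyte markers had a median difference of 0.02, with 13 higher and 9 lower (10 and 12 without control replicate 3). Xist, the RNA of X inactivation, lay between 4.31 and 4.80, and the Y-linked demethylase gene Kdm5d between 6.73 and 7.38, with no array far from the others. Alb and Xist were chosen after their values were seen.

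Sirt3 itself was lower in the knockout but did not pass the test. Its level was 9.29, 9.14 and 9.13 in control replicates 1 to 3 and 8.92, 8.49 and 8.87 in knockout replicates 1 to 3. Each knockout array lay below each control array, and the difference was -0.42 (SE 0.108, limma unadjusted p = 0.00141, adjusted p = 1.0). The control mean was 1.34-fold the knockout mean, so signal from the Sirt3 probe set persisted in the knockout. Where its probes lie relative to the deleted part is not given in the sources used here, so the signal is no check of the genotype. The difference in Sirt3 on the standard diet was -0.14 (SE 0.108).

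Of the 7 measured sirtuins, 5 were lower and 2 higher in the knockout, with a median difference of -0.05. Sirt1, the nuclear deacetylase, was at 7.41, 7.74 and 7.15 in the control and 7.03, 7.28 and 7.50 in the knockout, so its groups overlapped (-0.17, SE 0.166). Sirt5, a desuccinylase and demalonylase of mitochondria that was chosen after its values were seen, differed by -0.05 (SE 0.123). Sirt6, a nuclear sirtuin, lay below on each knockout array, by a mean of -0.10 (SE 0.0835). Without knockout replicate 1 the family's median was 0.06. Of 32 measured genes beside Sirt3 on the chromosome, 20 were lower and 12 higher, 3 of them lower at an unadjusted p under 0.05 with Sirt3 counted. The other members of those 3 were Gatd1 (-0.26, SE 0.0823) and Ifitm1 (-0.22, SE 0.0932), whose second probe set gave -0.06.

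The genes with the smallest p-values were led by a mitochondrial carrier. For each direction the 12 genes with the smallest p were taken among genes whose groups did not overlap, so the separation of their groups was fixed by that choice. Slc25a22, the mitochondrial glutamate carrier, stood at 10.77, 10.48 and 10.46 in the control and at 10.13, 10.08 and 10.16 in the knockout (-0.45, SE 0.0919). Its limma unadjusted p of 0.000209 was the smallest of all genes. Gatm, the mitochondrial enzyme of the first step of creatine synthesis, was at 8.60, 8.67 and 8.65 against 8.39, 8.25 and 8.26 (-0.34, SE 0.0842). In both genes the knockout arrays lay close together and below the lowest control array. Without control replicate 3 the differences were -0.51 for Slc25a22 and -0.34 for Gatm.

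Aldh1b1, an aldehyde dehydrogenase of mitochondria, had the smallest p among the higher genes. It stood at 8.10, 7.87 and 8.16 in the control and 8.38, 8.62 and 8.50 in the knockout (0.46, SE 0.097), with every knockout array above the highest control array. Ak4, an adenylate kinase of the mitochondrial matrix, was at 8.77, 8.52 and 8.87 against 8.87, 9.30 and 9.30 (0.44, SE 0.138), so that knockout replicate 1 lay at the edge of the control range. Both its probe sets were higher, the other by 0.60. Gadd45a, a stress gene of growth arrest and DNA damage, was at 8.03, 7.58 and 7.63 against 8.31, 8.16 and 8.30 (0.51, SE 0.128).

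The largest difference among these lower genes was that of Lepr. Lepr, the leptin receptor, was at 7.15, 7.17 and 7.03 in the control and 6.60, 6.01 and 6.55 in the knockout (-0.73, SE 0.189), and its control mean was 1.66-fold its knockout mean. Tlr4, the receptor for bacterial lipopolysaccharide, was at 5.46, 5.33 and 5.59 against 4.99, 5.09 and 5.06 (-0.41, SE 0.111). Mapkapk2, a kinase downstream of p38, differed by -0.36 (SE 0.0973). The cytoskeletal genes Septin11 (-0.34), Marcksl1 (-0.32) and Cdc42ep2 (-0.36) and the metalloprotease gene Adamdec1 (-0.41) were lower by like amounts, as were Swsap1 (-0.42), a factor of recombination repair, and the zinc finger gene Zfp820 (-0.51).

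The remaining higher genes were of mixed kinds. Ces1d, a carboxylesterase that hydrolyses triacylglycerol in the liver, was at 12.09, 12.07 and 11.78 in the control and 12.20, 12.43 and 12.45 in the knockout (0.38, SE 0.0981). Mid1ip1, a small protein that promotes acetyl-CoA carboxylase activity, was higher by 0.40 on the probe set used, while its other probe set gave -0.02, so that its probe sets disagreed. The guanine exchange factor genes Ngef (0.48) and Arhgef33 (0.33) and Fcamr, an Fc receptor for IgA and IgM (0.31), were also among them. Genes known from other tissues made up the rest, namely Svs6 (0.47), Defb42 (0.30), Spata45 (0.65) and Pramel7 (0.33), with levels from 3.69 to 5.87.

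All 24 genes kept their direction when any 1 array was left out, which their choice from genes without overlap fixed in advance. On the probe set used they also kept it under the other settings that held them. Several of those settings leave the difference itself unchanged, so they could not turn the direction. The setting limited to genes at or above the median level held 14 of the 24, and the second probe set of Mid1ip1 is the exception noted. Each also stayed within 1.5 times its difference when any 1 high-fat array was left out, which a choice by the smallest p favours. None of the 24 was called over all genes with limma in any of those fits.

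**Figure D1:**
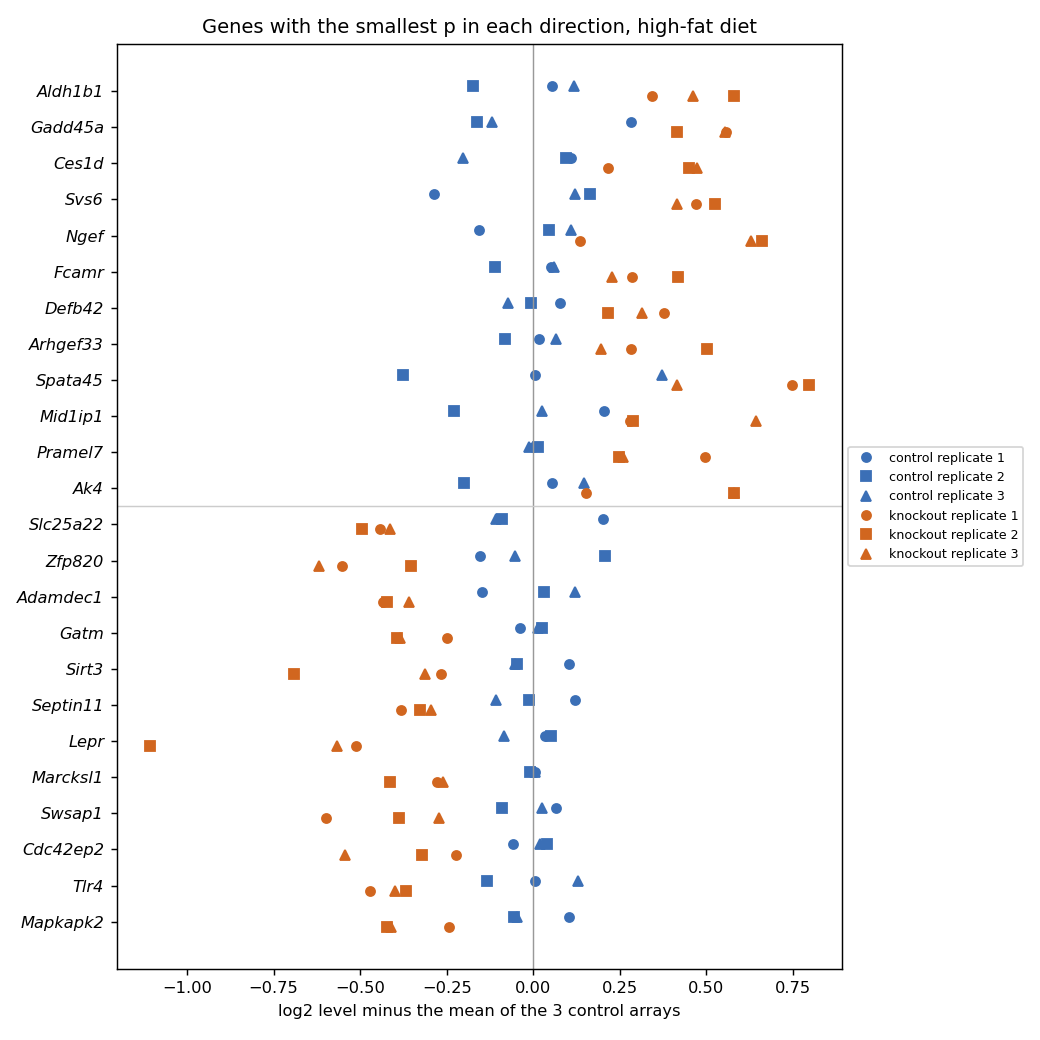
Log2 level of the 24 genes with the smallest p on each of the 6 high-fat arrays, minus the mean of the 3 control arrays of that gene; blue points are control and orange points knockout arrays, and the shape gives the replicate number. The genes were chosen from those whose groups do not overlap, and Lepr on knockout replicate 2 lies farthest from the control mean.

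Only 4 of the 19938 genes (0.0201%) differed by at least 2-fold, and the groups overlapped in each of them. They were Asns (-1.48, SE 0.446), the predicted gene Gm15441 (-1.17, SE 0.354), Ciart (1.23, SE 0.585) and Thrsp (1.30, SE 0.575). Thrsp and Gm15441 were named after their values were seen. Among genes whose groups did not overlap, the largest lower difference was that of Ppp1r3g, a subunit that targets protein phosphatase 1 to glycogen. It stood at 8.33, 7.29 and 7.58 in the control and 7.29, 6.63 and 6.79 in the knockout (-0.83, SE 0.284), so that its groups met at 7.29. The others of the 10 with the largest lower differences were Lepr, Zfp820, H2-Ab1 and H2-Aa of MHC class II, the anion transporter gene Slco1a1, the matrix gene Lum, the retinal gene Lrit2 (-0.49), Depp1 (-0.47, SE 0.395) and Srgn, a granule proteoglycan of blood cells (-0.46, SE 0.128). On the higher side the largest were Spata45, Angptl8, Cyp2a22, Gadd45a, Ngef, Cyp39a1, Svs6, Aldh1b1, Cstdc6 (0.45) and Cd36.

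Transcripts on the list written for SIRT3 substrates lay close to the control. The list also holds Lcn2, which is in the acute phase list too, and Acss2, which is in that of lipogenesis. Whether each member is a substrate was not tested. Of 34 measured members, 17 were higher and 17 lower, with differences from -0.21 to 0.13 and a median of 0.00. Without knockout replicate 1, 24 of the 34 were higher, with a median of 0.05. Idh2, the mitochondrial isocitrate dehydrogenase, was at 10.40, 10.30 and 10.90 in the control and 10.50, 10.71 and 10.65 in the knockout (0.09, SE 0.132). Sod2, the manganese superoxide dismutase, differed by 0.12 (SE 0.0814), and Acadl, the long-chain acyl-CoA dehydrogenase, by -0.03 (SE 0.0938). For these 3 genes the groups overlapped. Pdp1, a phosphatase that activates pyruvate dehydrogenase, was at the low end (-0.21, SE 0.105).

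Energy pathways of the mitochondrion differed by small amounts. Of 72 measured subunits of oxidative phosphorylation, 45 were higher and 27 lower, with a median of 0.02 and differences from -0.14 to 0.20. The highest member was Atp5e, the epsilon subunit of ATP synthase, at 8.33, 8.50 and 8.83 in the control and 8.83, 8.71 and 8.73 in the knockout (0.20, SE 0.117). Without knockout replicate 1, 61 of the 72 were higher and the median was 0.06, and without control replicate 3 it was 0.04. The 23 genes of the TCA cycle had a median of -0.01 (0.01 after median centring), with Cs, citrate synthase, at -0.12 (SE 0.0799). The 22 genes of mitochondrial fatty acid oxidation were likewise at -0.01 (0.01 after centring), and 15 of them were higher without knockout replicate 1, with a median of 0.04. In the TCA cycle 19 of 23 were then higher, with a median of 0.06. Cpt1a, the carnitine transferase of fatty acid entry, differed by 0.01 (SE 0.0898). No member of these 3 lists was at an unadjusted p under 0.05.

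Mitochondrial chaperones and proteases included 1 lower gene at an unadjusted p under 0.05. This was Clpx, the unfoldase of the matrix protease ClpXP, at 10.50, 10.37 and 9.91 in the control and 10.02, 9.84 and 9.70 in the knockout (-0.41, SE 0.14). Control replicate 3 lay within the knockout range and the groups overlapped. Of the 16 members, 13 were lower and 3 higher, with a median of -0.04, but 7 were lower and 9 higher without knockout replicate 1. Of 46 mitochondrial carriers, 26 were lower and 20 higher, and without that array 15 were lower and 31 higher. Apart from Slc25a22, the carriers at an unadjusted p under 0.05 were the ornithine carriers Slc25a15 (-0.20, SE 0.0772) and Slc25a2 (0.25, SE 0.116). The 30 genes of NAD synthesis and consumption were 15 higher and 15 lower, and 23 higher and 7 lower without knockout replicate 1. Nmrk1, the nicotinamide riboside kinase, was at 8.28, 8.46 and 8.19 against 8.20, 8.98 and 9.47 (0.57, SE 0.228), with knockout replicate 1 inside the control range. Afmid, the formamidase of tryptophan breakdown, was higher on each knockout array (0.35, SE 0.121), and Kynu, the kynureninase, lower on each (-0.27, SE 0.0927).

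Key genes of the fasting response overlapped between the genotypes. Pck1, the rate-limiting enzyme of gluconeogenesis, was at 13.11, 12.88 and 13.08 in the control and 12.91, 13.17 and 13.06 in the knockout (0.02, SE 0.0961). Fgf21, a fasting hormone of the liver, differed by 0.03 (SE 0.213), Ppargc1a, a coactivator of mitochondrial genes, by -0.27 (SE 0.181) and Igfbp1, an insulin-repressed secreted protein, by -0.35 (SE 0.375). Pdk4, the kinase that shuts off pyruvate dehydrogenase, spread most, at 8.13, 7.96 and 7.37 against 8.62, 6.85 and 7.74 (-0.08, SE 0.335). Its highest and its lowest value were both knockout arrays. Of the 36 PPAR-alpha responsive genes, 21 were lower and 15 higher, with a median of -0.02, which was -0.06 without control replicate 3 and 0.01 without knockout replicate 1. Among the 7 genes of ketone body metabolism, Slc16a1, a transporter of monocarboxylates, was lowest (-0.56, SE 0.271), and its level was 10.02, 10.10 and 9.10 in the control against 9.87, 8.70 and 8.96.

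Genes of lipogenesis differed in both directions. Scd1, a desaturase of saturated fatty acyl chains, was at 13.21, 13.11 and 13.22 in the control and 13.54, 13.52 and 13.04 in the knockout, and the groups overlapped through knockout replicate 3 (0.18, SE 0.217). Fasn, fatty acid synthase, differed by 0.16 (SE 0.124), Acaca, acetyl-CoA carboxylase, by 0.14 (SE 0.111) and Srebf1, the sterol response factor of lipogenesis, by 0.19 (SE 0.14). Mlxipl, the glucose-sensing factor ChREBP, was at 9.44, 9.68 and 9.57 against 9.91, 9.78 and 9.86, with no overlap (0.29, SE 0.126). The elongase genes Elovl5 (-0.22, SE 0.0778), Elovl1 (-0.24, SE 0.0966) and Elovl6 (-0.20, SE 0.139) were lower on every knockout array. Scd2, a desaturase (-0.38, SE 0.163), and Elovl3, an elongase (-0.39, SE 0.54), were lower with overlap. Of 33 measured genes of lipogenesis and triglyceride synthesis, 17 were higher and 16 lower, and 1 lay without overlap higher and 4 lower. Over all genes 2.41% lay higher and 4.27% lower without overlap. Without knockout replicate 1 the list had 21 genes higher and 12 lower. Acaca, Mlxipl, Elovl3 and Elovl6 were chosen after their values were seen.

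Thrsp, which promotes lipogenesis, had the largest higher difference of all genes, and it split both groups. Its level was 7.17, 7.44 and 9.05 in the control and 7.46, 9.81 and 10.29 in the knockout. Control replicate 3 was high and knockout replicate 1 was low, each lying with the arrays of the other genotype. The difference was 1.30 with all arrays, 1.88 without control replicate 3 and 2.16 without knockout replicate 1, with limma adjusted p-values of 0.746 and 0.304 in the latter fits.

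Genes of lipid uptake and lipoprotein handling differed in both directions. Cd36, a fatty acid transporter, was at 10.04, 9.37 and 10.11 in the control and 10.16, 10.54 and 10.16 in the knockout (0.45, SE 0.191), with control replicate 2 the lowest and knockout replicate 2 the highest. Angptl8, a secreted inhibitor of lipoprotein lipase, was at 7.69, 7.85 and 7.91 against 8.48, 8.43 and 8.47 (0.64, SE 0.227), so that its knockout mean was 1.56-fold the control mean. Here the gap between the groups was wider than the range of either. Lpl, lipoprotein lipase, was lower (-0.49, SE 0.203), as was Cidec, a lipid droplet protein (-0.48, SE 0.187), each with 1 overlapping array. Lipid droplet and uptake genes were 19 lower and 9 higher of 28, but 14 and 14 without control replicate 3 and also without knockout replicate 1. Genes of lipoprotein assembly were 13 higher and 8 lower of 21, and 11 and 10 without control replicate 3. Carboxylesterases and lipases were 11 higher of 18, with a median of 0.10 that was 0.02 without control replicate 3.

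Insig2 became a called gene when control replicate 3 was left out. Insig2 holds the SREBP escort protein in the endoplasmic reticulum and so restrains sterol synthesis. It was at 12.26, 12.24 and 11.33 in the control and 11.69, 11.57 and 11.69 in the knockout (-0.30, SE 0.174). Control replicates 1 and 2 lay above all knockout arrays and control replicate 3 below them. Without that array the difference was -0.60 (limma adjusted p = 0.0219). Insig1, its paralog, was at 0.29 (SE 0.182), and Sqle, squalene epoxidase, at 0.03 (SE 0.289). Of the 21 genes of cholesterol synthesis and uptake, 12 were lower and 9 higher, and 0 were at an unadjusted p under 0.05 with all arrays.

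Bile acid and xenobiotic genes included some of the larger differences. Cyp7b1, the oxysterol hydroxylase of the alternative bile acid pathway, was at 12.48, 12.79 and 11.84 in the control and 11.65, 10.90 and 12.03 in the knockout (-0.84, SE 0.313). Slco1a1, a hepatic anion transporter, was at 10.97, 11.97 and 10.86 against 10.77, 10.51 and 10.80 (-0.57, SE 0.237), with control replicate 2 far above the rest. Both are expressed more in male than in female mouse liver. The male-biased list was lower in 15 of 20 members, with a median of -0.08, and -0.20 without control replicate 3. The female-biased list was higher in 17 of 23, with a median of 0.16, and 0.09 without control replicate 3.

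Akr1d1, the steroid reductase of bile acid synthesis, had no value on knockout replicate 2. It was at 9.67, 9.62 and 9.74 in the control and 9.96 and 10.45 on the other knockout arrays (0.53, SE 0.154), and the fit left the missing array out for this gene. Cyp39a1, a hydroxylase of oxysterols, was higher on each knockout array (0.47, SE 0.24), and Cyp7a1, the rate-limiting enzyme of bile acid synthesis that was named after its values were seen, differed by -0.14 (SE 0.333). Among conjugating enzymes, Gstt3, a glutathione transferase, was at 8.11, 8.14 and 8.08 against 8.16, 8.97 and 8.53 (0.44, SE 0.184). Inmt, an amine methyltransferase, was higher by 0.30 (SE 0.131). For both, each knockout array lay above each control array. Of 39 conjugation genes, 27 were higher and 12 lower, with a median of 0.06, and 0.11 without knockout replicate 1. Cyp2a22, of P450 family 2, was higher on each knockout array (0.60, SE 0.331). Of 48 members of P450 families 2 and 3 and their regulators, 31 were higher and 17 lower. The 3 with the smallest p were Cyp3a13 (0.32, SE 0.153), Cyp2c23 (-0.17, SE 0.0876) and Cyp2c65 (-0.22, SE 0.119), each with overlap. Without control replicate 3 the P450 count was 20 higher and 28 lower.

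Of the chaperones, foldases and other stress genes of the endoplasmic reticulum, 32 of 42 were lower in the knockout. None was called, and the list means of the arrays overlapped. Cells raise many of these genes when unfolded protein builds up in that compartment, through a promoter element read by the factor ATF6 with NF-Y. This ER stress element is CCAAT and CCACG with 9 bases between them, searched on both strands in RefSeq promoter windows of build GRCm38.p6 that run from 250 bases before to 50 after a start site. It was found in 39 of 32851 windows (0.119%) and in those of 10 of the 36 listed genes that have a window. The windows of 3 such genes, a foldase, the main chaperone and a secreted stress protein, are shown to place the element (capitals) before the start site.
Pdia6, chr12:17266339-17266638, plus strand: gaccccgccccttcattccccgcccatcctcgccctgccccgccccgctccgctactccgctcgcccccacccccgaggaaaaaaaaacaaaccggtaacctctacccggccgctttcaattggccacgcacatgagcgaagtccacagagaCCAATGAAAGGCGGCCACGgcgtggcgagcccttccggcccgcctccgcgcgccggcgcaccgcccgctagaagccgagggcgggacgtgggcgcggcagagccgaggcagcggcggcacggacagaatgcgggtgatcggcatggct
Hspa5, chr2:34771840-34772139, plus strand: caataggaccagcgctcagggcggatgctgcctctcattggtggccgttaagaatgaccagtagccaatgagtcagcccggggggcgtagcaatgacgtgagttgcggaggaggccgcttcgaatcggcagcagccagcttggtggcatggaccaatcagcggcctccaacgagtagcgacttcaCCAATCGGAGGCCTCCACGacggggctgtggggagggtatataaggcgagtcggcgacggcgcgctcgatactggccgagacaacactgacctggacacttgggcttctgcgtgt
Creld2, chr15:88819396-88819695, plus strand: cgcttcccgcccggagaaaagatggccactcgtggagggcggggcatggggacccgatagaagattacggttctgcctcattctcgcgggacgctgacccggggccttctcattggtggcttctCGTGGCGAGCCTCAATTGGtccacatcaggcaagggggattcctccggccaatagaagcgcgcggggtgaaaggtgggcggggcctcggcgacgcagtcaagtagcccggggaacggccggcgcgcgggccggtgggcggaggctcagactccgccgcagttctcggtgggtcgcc
The element begins 98 bases before the start of Pdia6, 65 before that of Hspa5 and 126 before that of Creld2, where it lies on the opposite strand. A match of letters is a description and shows no binding.

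Pdia6, a protein disulfide isomerase, had the smallest p of the list. It stood at 10.45, 10.67 and 10.40 in the control and 9.92, 10.05 and 10.33 in the knockout (-0.41, SE 0.132, limma unadjusted p = 0.00778), with no overlap. Calr, the calcium-binding chaperone calreticulin, was at 11.12, 11.22 and 11.28 against 10.76, 10.97 and 11.09 (-0.26, SE 0.104), also with no overlap. Hspa5, the chaperone BiP, was at 11.70, 12.04 and 11.80 against 11.65, 11.45 and 11.77 (-0.22, SE 0.136), and knockout replicate 3 reached the control range. The lumenal chaperone Hyou1 (-0.32, SE 0.133) did not overlap, while Sdf2l1 (-0.38, SE 0.16), Creld2 (-0.32, SE 0.257) and Derl1, a factor of degradation from the reticulum (-0.25, SE 0.0945), did. Xbp1, a transcription factor of this response, differed by 0.02 (SE 0.108). Hspa5, Hyou1, Sdf2l1, Creld2 and Xbp1 were chosen after their values were seen.

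The 32 lower and 10 higher genes of the list stand against 56.9% lower over all genes. Of the list, 4 were lower without overlap, against 4.27% of all genes. The median was -0.09 with all arrays, -0.15 without control replicate 3 and -0.05 without knockout replicate 1, where 25 of 42 were lower. The list mean on each array, relative to its mean over the 6 arrays, was -0.01, 0.16 and 0.00 in the control and -0.15, -0.10 and 0.10 in the knockout. Knockout replicate 3 thus lay above 2 of the control arrays, and the groups overlapped. Over the 21 measured genes with the element, whatever their list, 13 were lower and 8 higher, with a median of -0.07.

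The integrated stress response, which raises amino acid synthesis genes through the factor ATF4, had 1 member, Asns, among the 2-fold genes. Asns, asparagine synthetase, carries the letters TGATGNAA, used here for the amino acid response element, beginning 23 bases before its start. They occur on either strand in 3.97% of all windows and in 10 of the 32 listed genes with a window, and are in capitals in its window.
Asns, chr6:7693160-7693459, minus strand: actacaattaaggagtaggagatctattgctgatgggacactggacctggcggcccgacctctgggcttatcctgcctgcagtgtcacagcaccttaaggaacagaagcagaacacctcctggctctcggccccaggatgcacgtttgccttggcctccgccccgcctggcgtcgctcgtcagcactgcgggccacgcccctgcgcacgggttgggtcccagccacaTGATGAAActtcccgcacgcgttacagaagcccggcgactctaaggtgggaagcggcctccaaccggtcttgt
Its level was 8.99, 9.80 and 7.50 in the control and 7.43, 6.88 and 7.54 in the knockout. Control replicate 3 lay with the knockout arrays, and the difference was -1.48 with all arrays and -2.12 without that array (limma adjusted p = 0.315). Atf5, a factor of the same response, was lower on each knockout array (-0.17, SE 0.0927), while Atf4 (-0.16, SE 0.129), Ddit3 (-0.02, SE 0.105) and Trib3 (0.07, SE 0.192), chosen after their values were seen, overlapped. Of 37 members, 24 were lower and 13 higher, with a median of -0.05. The member with the smallest p, Gadd45a, went the other way from Asns and was higher without overlap (0.51, SE 0.128).

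Of 16 core clock genes, 11 were higher and 5 lower in the knockout, with a median of 0.05 and 0 without overlap. Relative to the mean over the 6 arrays, the list mean was -0.11, -0.09 and -0.03 on the control arrays and -0.15, 0.19 and 0.19 on the knockout arrays, so knockout replicate 1 lay apart from the other knockout arrays. In the circadian clock, CLOCK and BMAL1 (Arntl) drive Per, Cry and Ciart genes through E-boxes, and DBP and its relatives act on D-boxes. The window of Ciart, a repressor of the clock, holds 3 E-boxes (CACGTG, found in 7.15% of windows), and that of Per3 holds 2 D-boxes (TTATGNAA on either strand, 3.38% of windows), given in capitals because both genes are named from the clock list.
Ciart, chr3:95882179-95882478, minus strand: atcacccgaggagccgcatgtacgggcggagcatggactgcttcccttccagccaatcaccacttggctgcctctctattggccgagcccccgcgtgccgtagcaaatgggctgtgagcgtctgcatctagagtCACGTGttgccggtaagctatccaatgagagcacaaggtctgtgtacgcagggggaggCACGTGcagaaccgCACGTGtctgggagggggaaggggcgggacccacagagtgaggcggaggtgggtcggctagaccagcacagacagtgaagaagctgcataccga
Per3, chr4:151044616-151044915, minus strand: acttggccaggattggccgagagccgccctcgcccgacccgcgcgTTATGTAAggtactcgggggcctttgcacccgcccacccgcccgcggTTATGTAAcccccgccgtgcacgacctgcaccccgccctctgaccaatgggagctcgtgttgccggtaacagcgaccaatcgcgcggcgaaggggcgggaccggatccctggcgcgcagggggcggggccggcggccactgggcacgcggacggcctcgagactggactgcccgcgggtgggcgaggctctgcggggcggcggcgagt
Ciart was at 6.90, 7.08 and 8.33 in the control and 7.27, 9.71 and 9.00 in the knockout. Per3, a period gene, was at 6.96, 7.33 and 7.30 against 7.22, 7.69 and 7.98 (0.43, SE 0.184), and Per2 differed by 0.45 (SE 0.209). In each of these, knockout replicate 1 lay within the control range and the other knockout arrays above it. Arntl (-0.16, SE 0.201), Clock (-0.22, SE 0.162), Nr1d1 (-0.12, SE 0.382) and Dbp (0.40, SE 0.322), chosen after their values were seen, overlapped as well.

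Wee1, a kinase of the cell cycle under clock control, was the called gene when knockout replicate 1 was left out. It stood at 7.80, 8.02 and 8.50 in the control and 8.06, 9.45 and 9.51 in the knockout (0.90, SE 0.284). Without knockout replicate 1 the difference was 1.37 (limma adjusted p = 0.0159). Usp2, a deubiquitinase with a daily rhythm, showed the same order, at 7.60, 8.31 and 8.83 against 7.80, 9.87 and 9.50 (0.81, SE 0.463), and was chosen after its values were seen. Of 24 clock output genes, 16 were higher and 8 lower, with a median of 0.20 that was 0.17 without control replicate 3 and 0.44 without knockout replicate 1. At an unadjusted p under 0.05 were 2 higher members and 1 lower. The lower 1 was Tubb2a, the lowest of the list (-0.51, SE 0.187), whose groups overlapped. The list mean was -0.30, -0.01 and 0.03 on the control arrays and -0.34, 0.32 and 0.31 on the knockout arrays. The part of the hour of killing in these values was not tested.

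**Figure D2:**
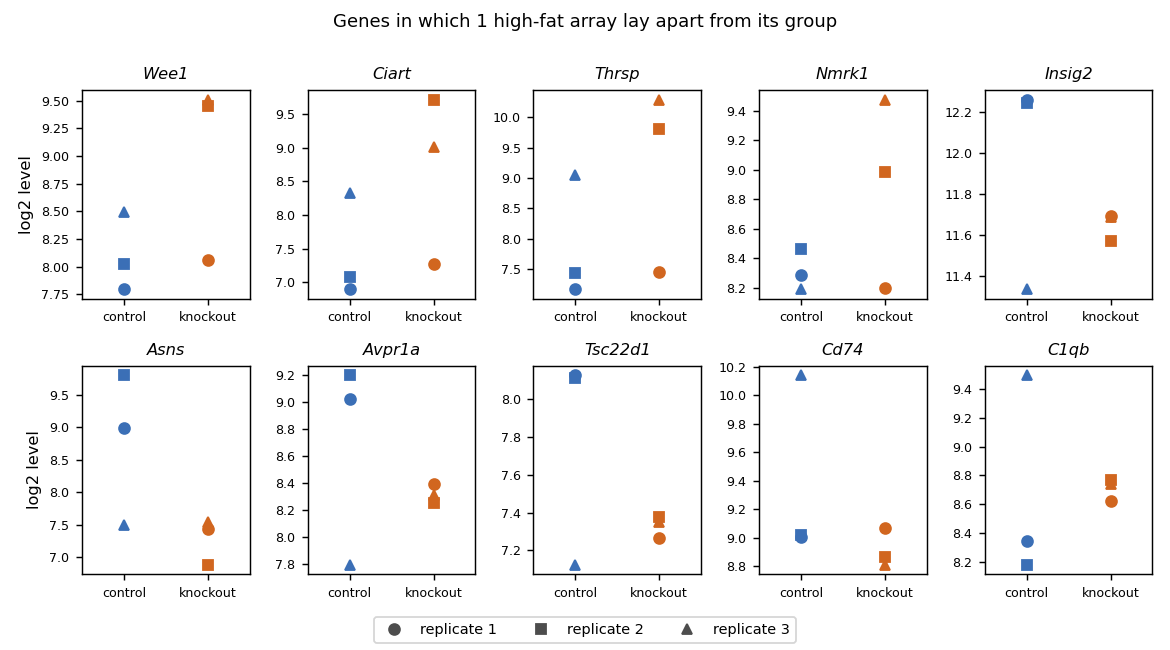
Log2 level of 10 genes on the 3 control (blue) and 3 knockout (orange) high-fat arrays, with the replicate number as the shape; each panel has its own axis, which does not start at 0. In Wee1, Ciart, Thrsp and Nmrk1 knockout replicate 1 lies with the control arrays, and in Insig2, Asns, Avpr1a, Tsc22d1, Cd74 and C1qb control replicate 3 lies apart from the other control arrays; Thrsp, Avpr1a, Tsc22d1, Cd74 and C1qb were chosen after their values were seen.

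Genes of antigen presentation were lower in the knockout, with control replicate 3 above all other arrays. H2-Ab1, the beta chain of an MHC class II molecule that presents antigen, was at 10.16, 10.09 and 11.00 in the control and 9.90, 9.90 and 9.59 in the knockout (-0.62, SE 0.271, and -0.33 without control replicate 3). H2-Aa, its alpha chain, was at -0.48 (SE 0.226), and at -0.24 without control replicate 3. Cd74, the invariant chain, was at 9.01, 9.01 and 10.14 against 9.07, 8.86 and 8.81, and its difference was -0.47 (SE 0.245) with all arrays and -0.10 without control replicate 3. Cd74 was chosen after its values were seen. Of 14 measured genes of MHC class II presentation, 13 were lower, 4 of them without overlap, against 4.27% of all genes. Their median was -0.26, and -0.10 without control replicate 3, when 11 of 14 were lower. Fewer cells of a type and less RNA per cell cannot be told apart in whole liver.

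Macrophage markers followed the same order of arrays. Cd68, a lysosomal protein of macrophages, was at 7.85, 7.89 and 8.35 in the control and 7.62, 7.72 and 7.81 in the knockout (-0.32, SE 0.118), with no overlap, and the difference was -0.16 without control replicate 3. Ccr2, the receptor that recruits monocytes, was at 4.48, 4.52 and 4.52 against 4.22, 3.94 and 4.30 (-0.35, SE 0.125), and Laptm5, a lysosomal protein of blood cells, differed by -0.34 (SE 0.131), and by -0.18 without control replicate 3. Ccr2 was the dimmest marker of the list, with a mean level of 4.33 against a median of 6.72 over all genes. The Kupffer cell receptor Clec4f (-0.09, SE 0.158) and the complement genes C1qa (-0.13, SE 0.13), C1qb (0.04, SE 0.232) and C1qc (-0.24, SE 0.137), chosen after their values were seen, overlapped. Of 28 markers, 25 were lower and 8 were lower without overlap, against 4.27% of all genes. The median was -0.25, and -0.10 without control replicate 3, when 19 of 28 were lower. The log2 of the summed marker signal was 12.71, 12.72 and 13.23 in the control and 12.67, 12.71 and 12.71 in the knockout, so apart from control replicate 3 the arrays lay between 12.67 and 12.72.

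Interferon-responsive genes were lower in 22 of 24, with a median of -0.12. Without control replicate 3 the count was 12 of 24 and the median -0.01. Cxcl10, an interferon-induced chemokine, was at 6.35, 6.22 and 7.65 in the control and 6.34, 6.13 and 5.93 in the knockout (-0.61, SE 0.266, and -0.15 without control replicate 3). On that array the list mean was 0.38 above its mean over the 6 arrays, while on the other arrays it was from -0.14 to -0.03. Neutrophil markers were lower in 8 of 13, and markers of lymphocytes and NK cells in 15 of 21. Both lists were dim, with median levels of 5.80 and 5.59 against 6.72 over all genes. Their median differences were -0.09 and -0.06, and 0.00 and 0.02 without control replicate 3. Without knockout replicate 1 they were -0.09 and -0.11. Acute phase genes were higher in 26 of 34, with a median of 0.07, and 0.16 without knockout replicate 1, and Fga, a fibrinogen chain, was at 9.99, 10.28 and 10.17 against 10.35, 10.40 and 10.34 (0.21, SE 0.0907).

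Stromal genes were lower by smaller amounts. Of 35 genes of stellate cells and matrix, 29 were lower, 3 without overlap, with a median of -0.11 that was -0.04 without control replicate 3. Lum, the matrix proteoglycan lumican, was at 6.51, 6.71 and 6.71 in the control and 5.82, 6.19 and 6.43 in the knockout (-0.50, SE 0.154), and -0.47 without control replicate 3. Col1a1 (-0.11, SE 0.145) and Col3a1 (-0.20, SE 0.117), the fibrillar collagens chosen after their values were seen, overlapped. Endothelial markers were lower in 18 of 22, 5 of them without overlap. Over all genes 4.27% were lower without overlap. The endothelial median was -0.06, which was -0.09 without control replicate 3 and -0.03 without knockout replicate 1. Fcgr2b, an Fc receptor of liver endothelium, was at 9.01, 9.04 and 8.99 against 8.83, 8.76 and 8.85 (-0.20, SE 0.0745), and Tie1 lay lower on each knockout array too (-0.19, SE 0.0933). Bile duct markers were higher in 8 of 12, with a median of 0.07, but in 6 of 12 and at 0.01 without knockout replicate 1. Cell cycle genes were lower in 20 of 29, with a median of -0.05 that was 0.00 without control replicate 3.

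**Figure D3:**
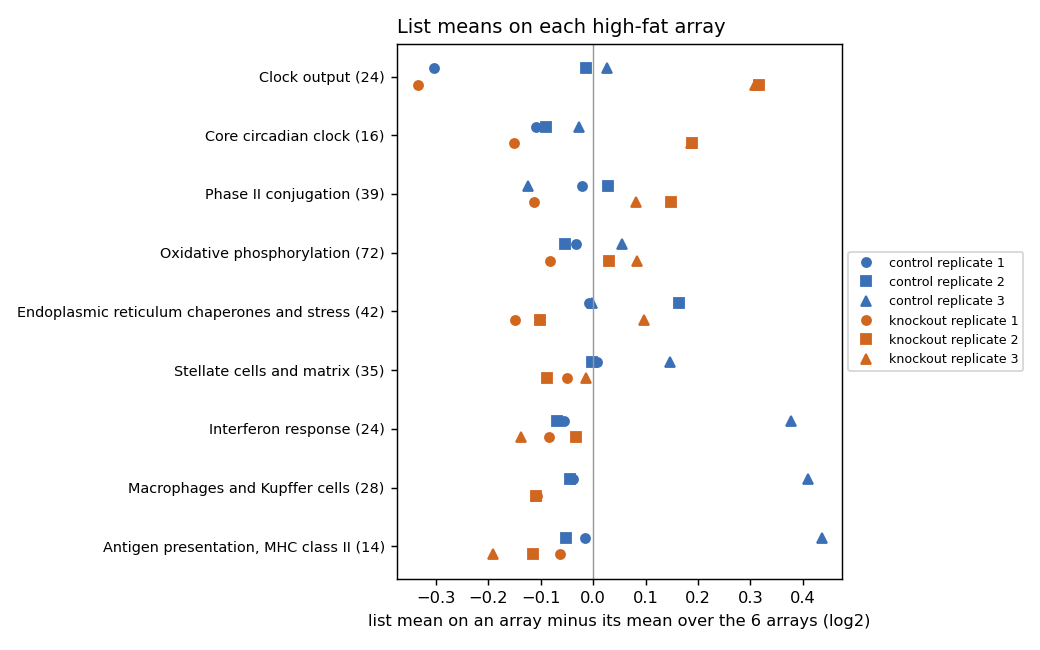
Mean log2 level of 9 gene lists on each high-fat array, minus the list's mean over the 6 arrays, with the number of measured genes in parentheses; blue is control, orange is knockout and the shape gives the replicate. Control replicate 3 lies far to the right for the interferon, macrophage and antigen presentation lists (0.38 to 0.44), and knockout replicate 1 lies at -0.34 for clock output against 0.32 and 0.31 on the other knockout arrays.

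**Figure D4:**
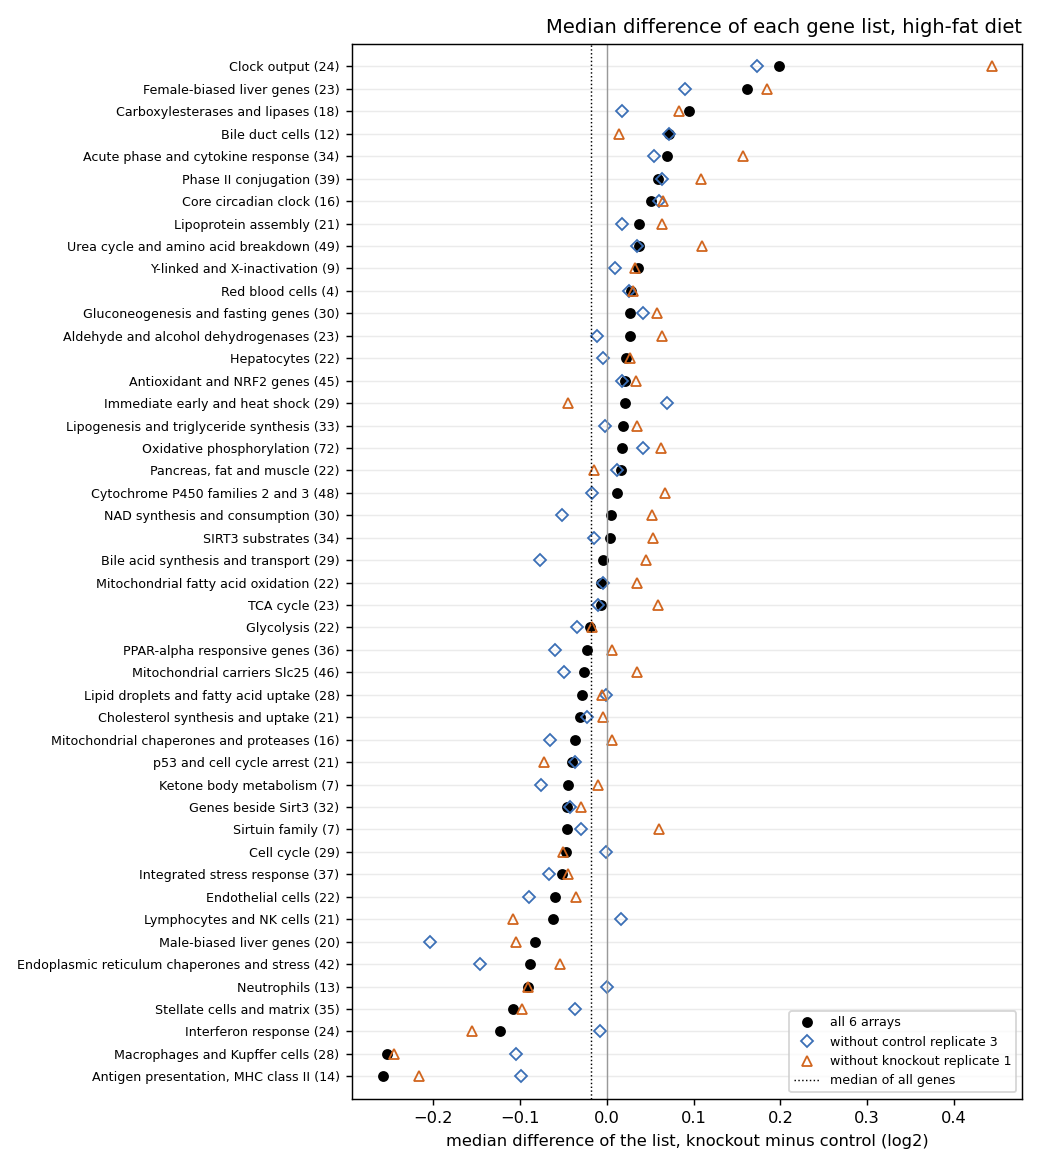
Median knockout minus control difference (log2) of each of 46 gene lists on the high-fat diet with all 6 arrays (black), without control replicate 3 (blue diamonds) and without knockout replicate 1 (orange triangles); the dotted line is the median of all genes, -0.02. The antigen presentation and macrophage lists move from -0.26 and -0.25 to -0.10 without control replicate 3, and clock output moves from 0.20 to 0.44 without knockout replicate 1.

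The genotype difference was set against that on the standard diet through the interaction term of the same fit. Of 19938 genes, 0 (0.0%) were called for the interaction at a limma adjusted p under 0.05, where the smallest was 0.945, and 944 (4.73%) stood at an unadjusted p under 0.05. On the standard diet 1 gene (0.00502%) was called, Scd1. It had a difference of 1.71 there, where its level was 10.10, 9.13 and 10.18 in the control and 11.74, 11.49 and 11.31 in the knockout, and of 0.18 on the high-fat diet. The interaction was -1.52 (limma unadjusted p = 0.000187, adjusted p = 0.945). Slc25a22 was at 10.89, 10.71 and 10.89 against 10.85, 10.94 and 10.97 on the standard diet, a difference of 0.09, and the interaction was -0.54 (adjusted p = 0.945).

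Aldh1b1 was higher in the knockout on both diets, by 0.46 and 0.37, and so were Angptl8 (0.64 and 0.49), Gstt3 (0.44 and 0.69) and Cd36 (0.45 and 0.31). Cyp7b1 was lower on both, by -0.84 on the high-fat and -1.12 on the standard diet, as was Asns (-1.48 and -0.91). Of the 42 genes of the endoplasmic reticulum list, 22 were lower on the high-fat and higher on the standard diet, 2 the reverse, 10 lower on both and 8 higher on both. The sign was thus opposite for 57.1% of the list and for 45.4% of all genes. Pdia6 was at -0.41 and 0.21, Hyou1 at -0.32 and 0.25, and Sdf2l1 at -0.38 and 0.55, while Derl1 was at -0.25 and -0.03 and Hsp90b1, chosen after its values were seen, at -0.22 and -0.03. The list's median was -0.09 on the high-fat and 0.09 on the standard diet, beside -0.02 and 0.04 over all genes. The interaction was -0.62 for Pdia6, -0.57 for Hyou1 and -0.92 for Sdf2l1, each at a limma adjusted p of 0.945. Of the 24 genes with the smallest p on the high-fat diet, 18 had the same sign on the standard diet. On that diet 6 of the 24 lay without overlap the same way, and 1, Marcksl1, the opposite way. For 12 of the 24 the limma interaction had an unadjusted p under 0.05.

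**Figure D5:**
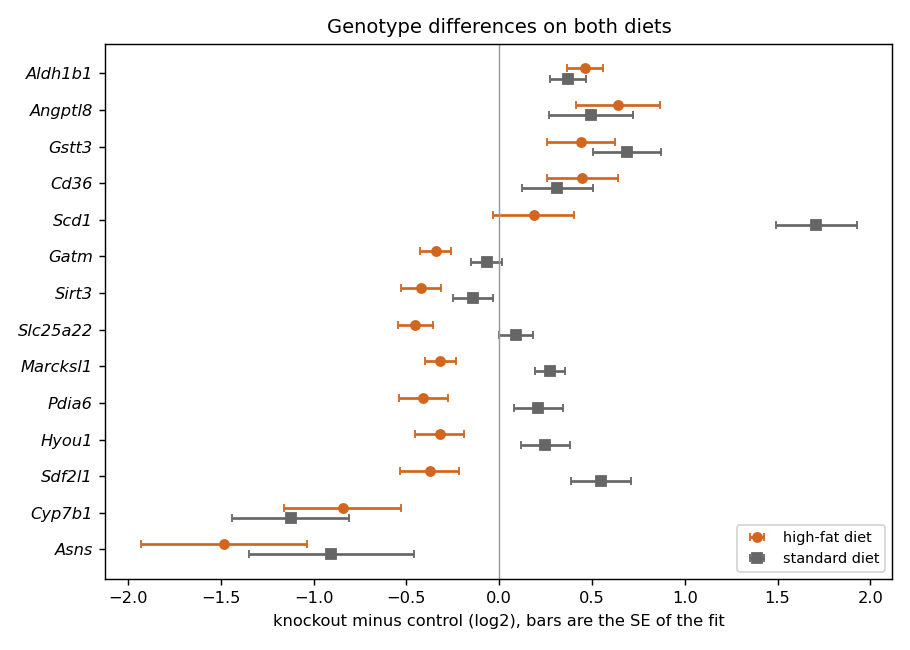
Knockout minus control difference (log2) of 14 genes on the high-fat diet (orange circles) and on the standard diet (grey squares), each from 3 arrays per genotype, with the SE of the limma fit as bars. Aldh1b1, Angptl8, Gstt3 and Cd36 lie to the right and Cyp7b1 and Asns to the left on both diets, Scd1 lies at 1.71 on the standard and 0.18 on the high-fat diet, and Pdia6, Hyou1, Sdf2l1 and Marcksl1 lie on opposite sides of 0.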

How the data were processed

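The deposited values are log2 signals of the authors, for which the submitters' processing notes name RMA and Affymetrix Expression Console, and no further normalization was applied. RMA corrects background, normalizes the arrays of a run and summarizes the probes of a probe set. The version, options and array annotation are not given in the sources used here, and 335 of 35557 probe sets have values on the high-fat arrays and on no standard-diet array. Probe sets with 1 gene symbol (21789; 1621 had several and 12147 none) were reduced to the set with the highest mean over 12 arrays, leaving 19938 genes. A mean per group of genotype and diet was fitted over the 12 arrays (limma 3.58.1, R 4.3.3, eBayes along an intensity trend, tested on simulated data), and p-values were adjusted by Benjamini-Hochberg over all genes. Named genes were Sirt3, a set of key genes of liver metabolism (some of them not reported here), the 12 genes per direction with the smallest p and the 10 with the largest difference among those whose groups did not overlap (predicted, receptor and clone-named genes left out), and up to 3 per gene list by p. The comparison, the key genes and the 46 gene lists were chosen with earlier results of these data known. Alternatives were other moderation, array weights, normalization, filters, probe sets and omitted arrays. Promoter windows are RefSeq's. Figures were drawn with matplotlib 3.10.9. The number of arrays limits the precision.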

Additional observations from a re-analysis of the deposited data

Results flagged for a closer look

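In 3 named genes every knockout array lay below every control array on the high-fat diet and above every control array on the standard diet, which is why they are given here. The share of all genes with this pattern was not counted. The differences between diets below come from the same values that chose these genes, so they add no separate support. Marcksl1, an actin-binding signalling protein, had a difference of -0.32 on the high-fat and 0.27 on the standard diet, and the difference between the diets was -0.59 (limma unadjusted p = 0.000153, adjusted p = 0.945). On the standard diet it was at 6.78, 6.70 and 6.72 in the control and 7.06, 7.01 and 6.95 in the knockout. For Cd68, the macrophage protein, the values were -0.32 and 0.16, with a difference between diets of -0.47 (adjusted p = 0.945). The Cd68 difference on the high-fat diet was -0.16 without control replicate 3. For Bub1b, a mitotic checkpoint kinase, they were -0.26 and 0.13, with a difference of -0.39 (adjusted p = 0.945). None of the 3 passed the test of the difference over all genes.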

How the results depend on the processing

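The count of called genes was 0 with other moderation, array weights, quantile normalization, median centring, a dim-gene filter, all probe sets, only the high-fat arrays and the replicate block, and 0 to 1 when 1 array was left out. With array weights 6 genes stood at an adjusted p under 0.1 (Aldh1b1, Carmil1, Ngef, Sirt3, Slc25a22 and Wee1). Same-numbered control and knockout arrays deviated from their group means with correlations of 0.174, 0.059 and -0.212, and arrays of unlike number with -0.334 to 0.329. Deviations within a group of 3 arrays constrain one another, so these values cannot decide whether replicate numbers pair the samples. The replicate block gave 603 genes at an unadjusted p under 0.05. That count was 997 with all probe sets, 2449 with array weights, 263 among genes at or above the median level and 398 to 1156 without 1 array. The genes whose groups do not overlap numbered 2347 with all probe sets, 2480 to 4202 without 1 high-fat array, and 7014 without control replicate 3 and knockout replicate 1 together, chosen after seeing the data. Fewer arrays make overlap rarer by construction. For a gene without missing values, other moderation, the dim-gene filter, all probe sets and only the high-fat arrays leave the difference unchanged. So do the replicate block and the omission of a standard-diet array, and the direction was fixed in advance there. With 0 genes called in the main fit, a value changed side of the threshold only where it became called. Of 3441 values of 166 named genes under alternatives, 3412 kept direction and side of the threshold and 27 reversed, in 12 genes with small differences. With array weights these were Acadl (0.0641), Car2 (0.0043), Fgf21 (-0.19), Slc4a1 (-0.0061) and Sqle (-0.28). Leaving out 1 array gave -0.091 to 0.0715 for Acadl, -0.1181 to 0.0251 for Car2, -0.0738 to 0.1007 for Cpt1a, -0.0256 to 0.2069 for Epb42, -0.1868 to 0.2124 for Fgf21, -0.0293 to 0.2722 for Idh2, -0.2271 to 0.025 for Kdm5d, -0.0502 to 0.0922 for Pck1, -0.5198 to 0.3611 for Pdk4, -0.0846 to 0.1278 for Slc4a1, -0.135 to 0.3043 for Sqle and -0.248 to 0.0538 for Tat. The cause was not tested.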
